A study of Caenorhabditis elegans with 2 samples.

Results

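The mir-51 family of Caenorhabditis elegans consists of 6 microRNA genes, mir-51, mir-52, mir-53, mir-54, mir-55 and mir-56. They were taken by name from the 260 microRNA genes of the RefSeq annotation, and all 6 were found in it. The data were ChIP-seq region lists from mixed-stage embryos of strain OP727, a worm line with the unc-119(tm4063) allele and the integrated transgene wgIs727, which carries ceh-83 fused to TY1, EGFP and 3xFLAG tags and an unc-119(+) rescue gene. CEH-83 is a homeobox protein, and the tagged protein was immunoprecipitated with an antibody against GFP. The antibody label of both samples reads ceh-83, the tagged gene. There was 1 group of 2 biological replicates of whole embryos, with male and female animals pooled, collected by egg bleaching and labelled with an age of 1 hour. Both libraries carry the transgene, so the values hold no comparison of genotypes or treatments, and expression of the microRNAs was not measured. No library of untagged animals was analysed here, and whether CEH-83 itself is bound at a peak was not tested.

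MicroRNAs are short RNAs cut from a hairpin in a longer transcript, and they lower the output of messenger RNAs that pair with their seed, bases 2 to 8 from the 5′ end. Members of a family share the seed and can often stand in for each other. The mir-51 family is the nematode branch of the miR-99/100 family of animals, it is expressed broadly and early, and worms that lack the whole family arrest as embryos, with defects that include an unattached pharynx.

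The mature sequences below carry the seed of the family and show what the 6 genes share and how they differ. They were read from the RefSeq mature microRNA coordinates on ce11, 5′ to 3′, with the seed in capitals.
mir-51: uACCCGUAgcuccuauccauguu
mir-52: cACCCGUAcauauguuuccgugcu
mir-53: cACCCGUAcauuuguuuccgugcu
mir-54: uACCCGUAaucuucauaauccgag
mir-55: uACCCGUAuaaguuucugcugag
mir-56: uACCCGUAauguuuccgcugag
All 6 hold the seed ACCCGUA, and among 458 annotated mature microRNAs of the worm no other has it. The arm of the hairpin that carries it differs by chromosome. At mir-51, mir-52 and mir-53, on chromosome IV, it is the 5p arm, and at mir-54, mir-55 and mir-56, on the X chromosome, it is the 3p arm. Beyond the seed, mir-52 and mir-53 are the closest pair, with 95.8% identity of the mature sequence and 79.0% of the hairpin. By mature sequence the next pair is mir-55 and mir-56, with 87.0%, and 55.6% of the hairpin. The mature sequence of mir-51 has its highest identity, 65.4%, with that of mir-54. Hairpins of chromosome IV and of X are 45.1% to 51.2% identical to each other. Every 31-base word of the 6 hairpins occurs at 1 place in the genome.

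**Figure D1:**
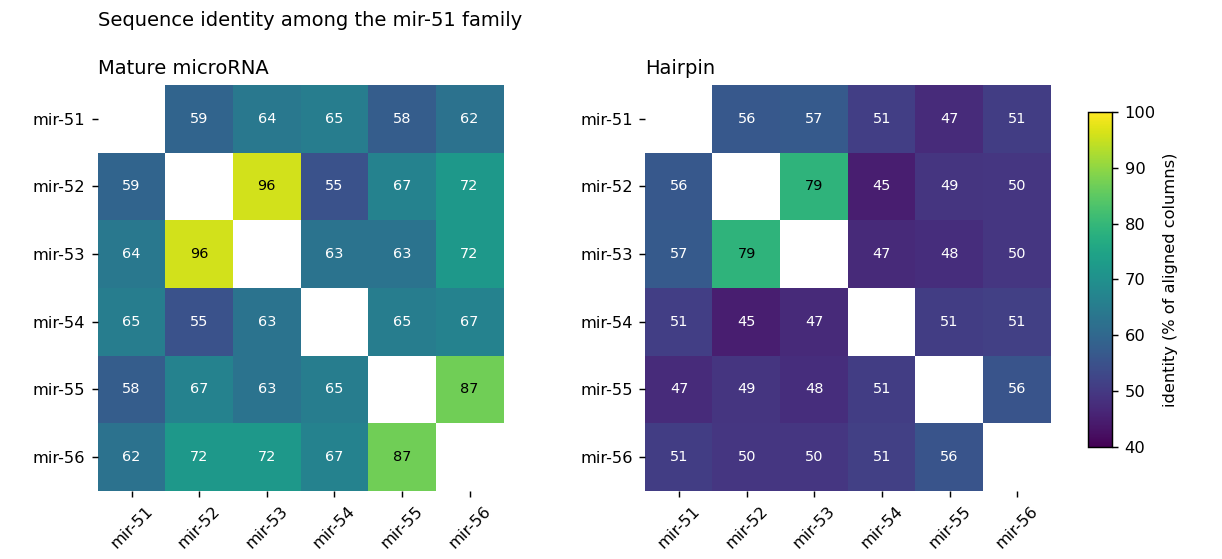
Identity between each pair of the 6 family members, as a percentage of aligned columns after global alignment, for the mature microRNA that carries the family seed (left) and for the annotated hairpin (right). The pair of mir-52 and mir-53 has 95.8% and 79.0%, above all other pairs in both panels.

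The family occupies 3 stretches of the genome, given here on ce11 and counted from 1. The hairpin of mir-51 spans chrIV:11026013-11026112 on the minus strand, and that of mir-53 spans chrIV:11027593-11027691 on the same strand, with 1480 bp between them. Both stand in intergenic sequence between the aldehyde dehydrogenase gene alh-3, whose end is 143 bp from mir-51, and the heme-responsive gene hrg-5, whose end is 598 bp from mir-53. The hairpin of mir-52 spans chrIV:14034008-14034107 on the plus strand, 3007896 bp from mir-51 between hairpin starts. It is intergenic, 9380 bp from irld-55 and 8488 bp from Y37A1B.7. On X, mir-54 spans chrX:13144996-13145094, mir-55 spans chrX:13144827-13144924 and mir-56 spans chrX:13144691-13144787, all on the minus strand and within 404 bp. No exon of their host F09A5.3 overlaps these hairpins, so the cluster is intronic, on the opposite strand to its host. The annotation has a further microRNA gene, F09A5.15, on the plus strand over mir-55, named cel-mir-55b by Ensembl and not counted as a member here.

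Peaks were present at mir-51, mir-52 and the X cluster, and mir-53 had none of its own. The authors deposited 4 region lists. Each replicate has a relaxed list of 30000 regions, the reads of both replicates pooled gave another 30000, and 1258 regions passed their irreproducible discovery rate (IDR), which tests how far ranked regions recur between replicates. A peak below is a region of this IDR list. A summit of the IDR list lay within 200 bp of the hairpin for 4 of 6 members, mir-51, mir-52, mir-54 and mir-55, and mir-54 and mir-55 share theirs. Over all microRNA genes this held for 18 of 260 (6.92%, 95% Clopper-Pearson interval 4.15 to 10.7), which cover counting error over genes only. The family was chosen by the authors' signal and rank at these genes, with the peaks at mir-51 and mir-52 known, and clustered members share a peak, so these shares are a description with no test. The nearest member inside the 200 bp limit was mir-55, at 163 bp, and the nearest outside it was mir-56, at 300 bp. With a limit of 2 kb from the hairpin start, 6 of 6 members had an IDR summit, against 15.0% of all microRNA genes, but mir-53 then counts the peak of mir-51. In the relaxed pooled list, 5 of 6 members had a summit within 200 bp, against 26.2% of all microRNA genes.

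The peak at mir-51 was the highest at any of the microRNA genes. Its signal, the authors' own value per region and used here to describe and rank regions within a list only, was 649 in replicate 1, 825 in replicate 2 and 1471 in the pooled list. It ranked 5, 4 and 5 in those 3 lists. The lists differ in scale, and set against the median region of its own list it stood 12.3 times higher in replicate 1, 14.2 times in replicate 2 and 13.8 times in the pooled list. The pooled peak spans chrIV:11026104-11026346, which is 243 bp, while 29987 of the 30000 pooled regions are 444 bp wide. The narrower form recurred, with 201 bp in replicate 1 and 254 bp in replicate 2.

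The summit at mir-51 stood upstream of the hairpin. It lay at -91 bp from the hairpin start in replicate 1 and at -88 bp in replicate 2 and the pooled list, so the replicates placed it 3 bp apart. Only 9 bases of the hairpin are inside the pooled peak. The replicate 1 region, chrIV:11026143-11026343, does not reach the hairpin. The replicate 2 region, chrIV:11026082-11026335, reaches further into it than the pooled peak. The summit falls in F36H1.17, a short non-coding RNA gene at chrIV:11026131-11026219 that runs on the same strand as mir-51 and ends 19 bp before its hairpin. The nearest start of a protein-coding gene, that of hrg-5, is 3228 bp from the summit. The nearest tRNA, snoRNA or snRNA gene is 56947 bp away, the snoRNA gene M7.15. The hairpin start is that of the annotated hairpin, which lies outside the mature microRNA. The start of the primary transcript is not given in the annotation used here.

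The bases around the summit are shown because the peak stands on sequence outside the microRNA. The 201 bases of chrIV:11026100-11026300, centred on the pooled summit, read as follows on the minus strand, with the hairpin of mir-51 in capitals.
mir-51 summit: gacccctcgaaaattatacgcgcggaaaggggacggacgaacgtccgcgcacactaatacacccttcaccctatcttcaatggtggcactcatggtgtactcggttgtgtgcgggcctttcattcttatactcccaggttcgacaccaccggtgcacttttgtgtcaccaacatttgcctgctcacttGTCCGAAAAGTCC
This window holds the letters GTTCGACAC at chrIV:11026155-11026163 on the minus strand, inside F36H1.17 and centred 41 bp from the summit. They match GTTCGANNC, the core of the B box, the inner promoter element of tRNA genes. The B box was searched after the data had been seen, on both strands. Among windows reaching 50 bp from the summit on each side, 9.94% of all 1258 IDR summits hold this core, 40.3% of the 236 with a tRNA gene within 200 bp and 2.94% of the 1022 without one. Of the 30000 pooled windows, 1.41% hold it. The core was absent from the windows of both peaks of mir-52, of the X cluster peak and of the mir-53 region, and from the whole of these regions. None of the 11 distinct IDR summits at other microRNA genes, among them the X cluster peak by way of F09A5.15, has the core in its window. A match of letters is a description and shows no factor at the site.

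The peak at mir-52 had nearly the height of that at mir-51 but stood on the hairpin itself. Its signal was 606 in replicate 1, 719 in replicate 2 and 1319 in the pooled list, with ranks of 8, 6 and 7. The signal at mir-51 was 1.07 times that at mir-52 in replicate 1, 1.15 times in replicate 2 and 1.11 times in the pooled list. The peak at mir-52 was lower than that at mir-51 in both replicates, by a small margin. The pooled peak spans chrIV:14033877-14034215, is 339 bp wide and holds all 100 bases of the hairpin. It was 226 bp wide in replicate 1 and 339 bp in replicate 2. The summit lay at +55 bp from the hairpin start in replicate 1 and at +47 bp in replicate 2 and the pooled list, inside the hairpin.
mir-52 summit: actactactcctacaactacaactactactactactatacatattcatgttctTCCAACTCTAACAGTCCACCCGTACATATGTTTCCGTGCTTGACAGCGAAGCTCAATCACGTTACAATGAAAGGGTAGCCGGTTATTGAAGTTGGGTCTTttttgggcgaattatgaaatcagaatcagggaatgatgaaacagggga
These are the 201 bases of chrIV:14033955-14034155 on the plus strand, centred on the pooled summit, with the hairpin in capitals. The seed of mir-52 is in the capitals as ACCCGTA. The antisense non-coding RNA gene Y37A1B.335 also covers the summit, and another non-coding RNA gene, on the strand of mir-52, ends 4 bp before the hairpin. The nearest start of a protein-coding gene, Y37A1B.7, is 9725 bp from the summit, and the nearest tRNA, snoRNA or snRNA gene is a tRNA gene 20179 bp away.

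A lower peak overlapped the high one at mir-52. It spans chrIV:14034032-14034475, shares 184 bp with the higher peak, and its summit is 147 bp beyond the hairpin end. Its signal was 191 in replicate 1, 136 in replicate 2 and 340 in the pooled list, with ranks of 175, 473 and 242. The higher peak was 3.17 times as high in replicate 1, 5.27 times in replicate 2 and 3.88 times in the pooled list. At mir-51 and at the members on X, no second IDR summit lay within 2 kb of the hairpin start.

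The members on X had 1 IDR peak in common, which was lower than those of mir-51 and mir-52. It spans chrX:13144865-13145308, has the usual width of 444 bp, and covers all 99 bases of the mir-54 hairpin, 60 bases of mir-55 and none of mir-56, which lies beyond a gap of 77 bp. Its signal was 101 in replicate 1, 150 in replicate 2 and 249 in the pooled list, with ranks of 926, 364 and 482. The lowest signal in the IDR list is 190 and its median is 228.
mir-54 summit: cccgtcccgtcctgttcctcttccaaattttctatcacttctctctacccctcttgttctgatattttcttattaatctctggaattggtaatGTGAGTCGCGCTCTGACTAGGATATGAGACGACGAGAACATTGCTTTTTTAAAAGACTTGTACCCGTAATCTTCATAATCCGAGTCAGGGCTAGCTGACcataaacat
These are the 201 bases of chrX:13144987-13145187 on the minus strand, centred on the pooled summit, with the hairpin of mir-54 in capitals. The summit was at +12 bp from the start of mir-54, the first hairpin of the cluster, in replicate 1 and at +7 bp in replicate 2 and the pooled list. From mir-55 the same summit was at -158 bp in replicate 1 and -163 bp in replicate 2. From mir-56 the pooled summit was at -300 bp. The non-coding RNA gene F09A5.11, at chrX:13145213-13145271 on the strand of mir-54, is inside the peak and 119 bp from the mir-54 hairpin. The nearest start of a protein-coding gene is that of F09A5.3, 3486 bp from the summit.

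Within each list, the peak of mir-51 was 6.44 times as high as that of the X cluster in replicate 1, 5.51 times in replicate 2 and 5.90 times in the pooled list. The peak of mir-52 was 6.02, 4.81 and 5.29 times as high as that of the X cluster in the same lists. The difference had the same direction in both replicates. These peaks were picked for their height, so it is given without a test. The lower peak of mir-52 was 1.90 times that of the X cluster in replicate 1 and 0.912 times in replicate 2, so the order of these did not recur.

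**Figure D2:**
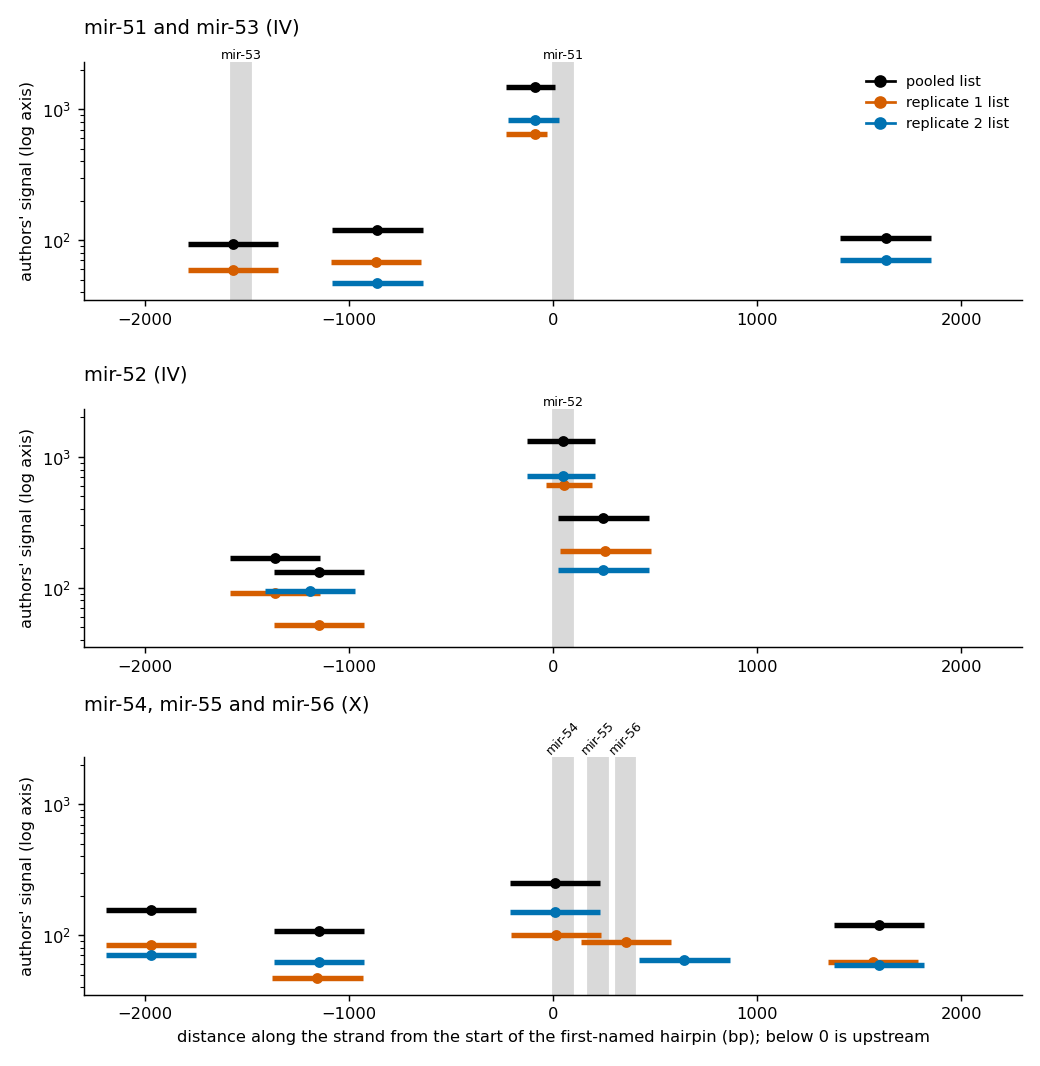
Regions of the pooled list (black), replicate 1 (orange) and replicate 2 (blue) with a summit within 2 kb of the first-named hairpin start at the 3 loci, by distance along the strand in bp (x axis) and the authors' signal on a log axis (y axis). Bars span the region, points mark the summit and grey bands the hairpins; the pooled peaks stand at 1471 beside mir-51, 1319 on mir-52 and 249 at the start of mir-54.

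The peaks differed in how far they rose over the other regions near them. At mir-51 the highest region within 2 kb of the hairpin start was 9.60 times the next in replicate 1, 11.6 times in replicate 2 and 12.2 times in the pooled list. At mir-52, where the next was its lower peak, it was 3.17, 5.27 and 3.88 times the next in the same lists. At mir-54 it was 1.14 times the next in replicate 1, 2.14 times in replicate 2 and 1.60 times in the pooled list. In replicate 1 that next region had its summit at +50 bp inside the hairpin of mir-56, with a signal of 88.0 and a rank of 1669. In replicate 2 no summit lay in the hairpin of mir-56, and a region at +335 bp from its start had a signal of 64.2 and a rank of 10693. The region in mir-56 was found in 1 replicate and not in the pooled list. In the pooled list the second highest region had a signal of 120 at mir-51, 340 at mir-52 and 156 at mir-54. The peaks of mir-51 and mir-52 were picked for their height, which these ratios include.

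Apart from the peak of mir-51, mir-53 had only low regions near it. Its nearest pooled region spans chrIV:11027459-11027902, with a summit at +10 bp inside the hairpin, a signal of 93.7 and a rank of 21755 of 30000. In replicate 1 the region was at the same place, with a signal of 58.7 and a rank of 10457. In replicate 2 the nearest summit was at +717 bp, with a signal of 47.4 and a rank of 26193. A region there was also in the pooled list, at +717 bp, with a signal of 120 and a rank of 9799. Replicate 1 had it at +711 bp, with a signal of 67.6 and a rank of 5887. In both of these lists it was higher than the region inside the hairpin. The pooled value of the region inside the hairpin is 0.879 of the list's median, and that region recurred in neither the IDR list nor replicate 2. mir-51, on the same strand and 1480 bp away, had 15.7 times the signal of mir-53 in the pooled list and 11.1 times in replicate 1. The mature sequence of mir-53 is the nearest to that of mir-52 in the family, so the closest pair by sequence held ranks 21755 and 7 in the pooled list.
mir-53 summit: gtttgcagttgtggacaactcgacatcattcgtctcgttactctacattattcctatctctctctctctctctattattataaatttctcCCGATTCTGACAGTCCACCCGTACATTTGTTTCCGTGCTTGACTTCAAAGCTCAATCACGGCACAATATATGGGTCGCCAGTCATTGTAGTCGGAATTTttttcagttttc
These are the 201 bases of chrIV:11027581-11027781 on the minus strand, centred on the pooled summit, with the hairpin in capitals. They are given for comparison with the window of mir-52, since both hairpins hold the seed on the 5p arm.

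**Figure D3:**
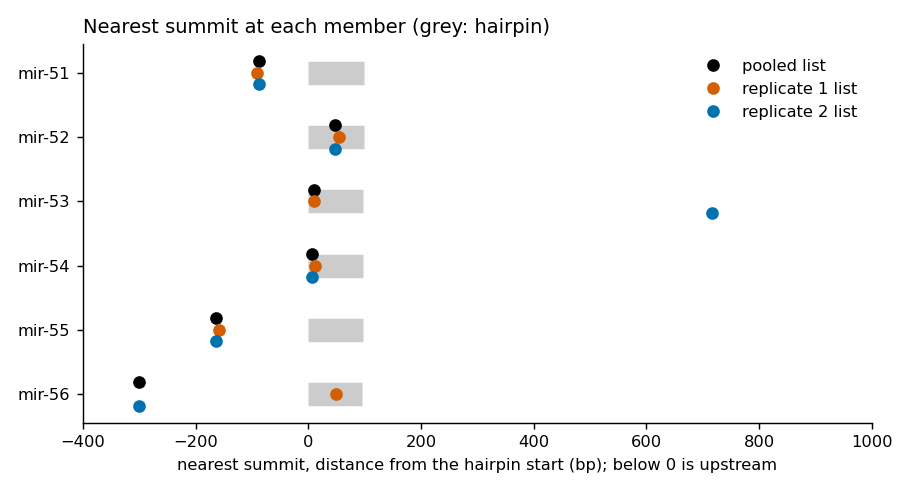
Distance of the nearest summit from the start of each hairpin (x axis, bp along the strand) for the 6 members (y axis) in the pooled list (black), replicate 1 (orange) and replicate 2 (blue); grey bars mark the hairpins. At mir-51, mir-52, mir-54 and mir-55 the lists lie within 8 bp of each other, while at mir-53 and mir-56 1 replicate stands apart.

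Of 7 fixed sequences, few occurred in the windows reaching 50 bp from these summits on each side. TAATTA, which holds the core bound by many homeodomains, was in none of the 5 windows (mir-51, both peaks of mir-52, the X cluster and mir-53), and 2.31% of all IDR windows hold it. The shorter TAAT occurred 1 time at mir-51, 3 times at the X cluster and 2 times at mir-53. It is in 41.4% of IDR windows and 57.1% of pooled windows. GAGAGA was at mir-53 only, in overlapping matches of its run of C and T. It is in 13.6% of IDR windows and 7.13% of pooled windows. TTTTTT was at the X cluster only (25.9% of IDR windows). TATAAA was at mir-53 only (6.12% of IDR windows and 9.23% of pooled windows). GGGCGG and CTCCGCCC, a sequence found upstream of many nematode microRNA genes and whose reverse complement holds GGGCGG, were in none of the 5, and 7.47% and 2.23% of IDR windows hold them. In the 101 bases centred 50 bp upstream of the hairpin start, CTCCGCCC is in 2.69% of the 260 microRNA genes. Each sequence was searched on both strands. The share of G and C in the windows was 50.5% at mir-51, 46.5% at the higher peak of mir-52 and 36.6% at the X cluster. The median over IDR windows was 47.5%. At mir-53, whose region is not in the IDR list, the share was 41.6%, against a median of 38.6% over pooled windows. Every 31-base word within 100 bp of the summits occurs at 1 place in the genome assembly. Only region lists were used, so how reads were placed at these sites was not tested.

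Among other microRNA genes, the peak nearest in rank to those of mir-51 and mir-52 was at the mir-35 cluster. mir-35, mir-36, mir-37 and mir-38, whose family is also needed in worm embryos, had 1 peak in common with a signal of 420 and a rank of 164 in the pooled list, 145 in replicate 1 and 190 in replicate 2. It was followed by mir-87 with 315, mir-2 with 307 and mir-58.1 with 270. mir-2 had no region within 200 bp in replicate 1 and one of 145, at rank 401, in replicate 2, while the other 13 called genes outside the family had a region in both replicates. Likeness was measured as the difference in pooled rank, and the 5 nearest genes to both members were mir-35, mir-36, mir-37, mir-38 and mir-87, with differences of at least 159 from mir-51 and 157 from mir-52. The other called genes were F09A5.15, mir-8192, mir-79, mir-1829.3, mir-270, mir-8196.2 and mir-72, with 203 to 249. Of the 14 called genes outside the family, 8 had their summit upstream of the hairpin start, and none had a region narrower than 444 bp. These genes hold 11 distinct summits, and that of F09A5.15 is the X cluster peak of the family. The shared summit of the mir-35 cluster counts as upstream for mir-37 and mir-38 and as downstream for mir-35 and mir-36.

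**Figure D4:**
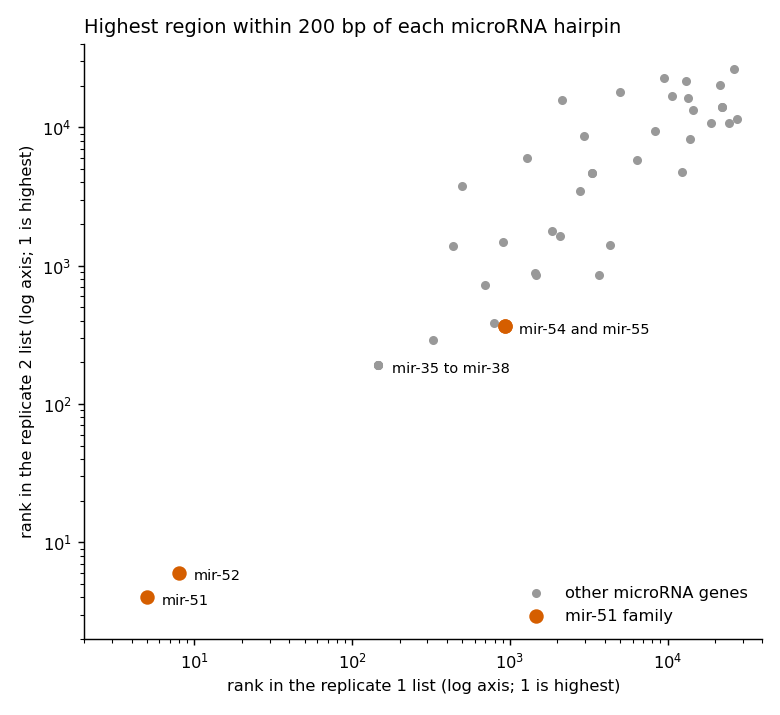
Rank of the highest region within 200 bp of each microRNA hairpin in replicate 1 (x axis) and replicate 2 (y axis), both on log axes with rank 1 the highest, for the 4 members of the mir-51 family (orange) and the 40 other microRNA genes (grey) with such a region in both lists. mir-51 and mir-52 hold ranks 4 to 8, while the next microRNA genes, mir-35 to mir-38, hold 145 in replicate 1 and 190 in replicate 2.

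The surroundings of each member held more relaxed regions than the median microRNA gene. Within 2 kb of the hairpin start there were 4 pooled regions at mir-51, mir-52 and mir-54 and 3 at mir-53, mir-55 and mir-56, against a median of 1 over all microRNA genes. These counts include the peaks that were known when the family was chosen, and neighbouring members count the same regions. They are set beside a median only, without the spread over genes, and are a description with no test. Without read totals for either library the depth behind these values is unknown.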

How the data were processed

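The submitters' file listing describes narrowPeak lists on assembly ce11: a relaxed list for each replicate alignment against a control, the same for both alignments pooled, and an IDR list derived from them. Per the labels, sonicated fragments measured 200 to 800 bp. Aligner, peak caller, IDR threshold and depth, not given in the sources used here, were not assumed. Each list has a signal column of its own, deposited by the authors, and values were set side by side within a list only. A further deposited score, in the q-value column, runs below 0 and was not used. Summits come from the authors' summit column.

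Hairpins and mature microRNAs came from RefSeq on WBcel235, the assembly of ce11, whose chromosomes hold all regions, and neighbouring genes from Ensembl release 115. Offsets run along the strand of the microRNA from the annotated hairpin start. Replicate summits were matched within 100 bp. Identities are from global alignments (match 1, mismatch -1, gap opening -2, extension -0.5) in Biopython 1.88; Python 3.11.15, pandas 2.3.3, SciPy 1.17.1 and matplotlib 3.10.9 did the rest. Distance and sequence searches were tested on simulated data. The members, sequences and lists were chosen with earlier results of these data known. The text names the members, some of their neighbours and every other microRNA gene with an IDR summit within 200 bp. The alternatives were the distance limit, overlap in place of summits, a stricter list, each replicate alone, and other reference points.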

Additional observations from a re-analysis of the deposited data

How the results depend on the processing

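With 1 group, no test between samples was made, so only values and counts can move. The count of members with an IDR summit within 200 bp, 4 of 6, was 2 with the summit required inside the hairpin (mir-52 and mir-54), and between 4 and 6 under the other distances, with overlap of the region and with the higher 629 peaks. With the 1258 highest regions of either replicate in place of the IDR list it was 4, the same 4 genes each time. The count over all microRNA genes, 18 of 260, was 4 inside the hairpin, 31 within 1000 bp and 40 within 2000 bp of the hairpin, and 16 from either replicate alone. The mean signal of mir-51 and mir-52 over that of the nearest regions of the X members was 5.60 in the pooled list. It was 6.50 in replicate 1 and 5.16 in replicate 2. In the pooled list and replicate 2 the X members share 1 peak, which the mean repeats for each of them. In replicate 1 the value of mir-56 is instead its own region of 88.0, so the 2 replicate ratios rest on different regions. The pooled summit measured from the mature microRNA instead of the hairpin start was at -5 bp for mir-53 and -53 bp for mir-54, where it had been downstream. The nearest summit of mir-56 was at -300 bp from the hairpin start without replicate 1 and at +50 bp without replicate 2. With the highest instead of the nearest region within 2 kb, the value of mir-53 was 1471, that of the mir-51 peak. No paired analysis was possible because there is 1 group. Unknown depth limits what the low regions at mir-53 and mir-56 can show.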
